A study of Mus musculus with 6 samples.

Results

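The Gata factors and the regulators that work with them in red cell and megakaryocyte development were followed in sorted blood progenitors of leukemic and healthy mice. The genes were Gata1, Gata2, Gata3, Zfpm1, Tal1, Nfe2, Gfi1b and Lmo2, and every probe set of the deposited table that carried 1 of these symbols and no other was taken. This gave 8 of the 13146 genes named in the table and 10 of its 28821 probe sets, a pair each for Gata2 and Zfpm1 and 1 for each other gene. The cells lacked lineage markers and Sca1 and carried the receptor Kit (Lin-/Sca1-/cKit+), and their RNA was read on Affymetrix Mouse430_2 arrays, 3 for leukemia and 3 for wild-type. The leukemia cells came from the spleens of wild-type MF1 mice that had received, after lethal irradiation, hematopoietic progenitors transduced with AE9a, a short form of the AML1-ETO fusion protein of acute myeloid leukemia. The 3 samples name 3 numbered mice, and the promoter that drove AE9a is not given in the labels. The wild-type cells came from the bone marrow of MF1 mice that the labels do not describe as transplanted, and the labels name these mice in the plural without saying how many gave 1 sample. All mice were 12 to 16 weeks old. Tissue of origin, irradiation and transplantation therefore differed together with the leukemia and cannot be told apart from it. Whether the samples were separate animals throughout is not stated, so the p-values speak only of the spread among these 6 samples.

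Gata factors are zinc finger proteins that bind short GATA-containing DNA sites. Gata2 acts in stem and early progenitor cells and in mast cells, Gata1 in red cells, megakaryocytes, mast cells and eosinophils, and Gata3 in T cells and in innate lymphoid cells. During red cell maturation Gata1 takes the place of Gata2 at shared sites. Zfpm1 (FOG1) is a cofactor that binds the Gata1 protein. Tal1, a basic helix-loop-helix factor, and Lmo2, a LIM domain bridge, join Gata1 or Gata2 in a DNA-bound complex held by Ldb1. Gfi1b is a repressor of the red cell and platelet lineages, and Nfe2 is the factor of platelet formation that binds DNA together with a small Maf protein.

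The arrays of the groups stood apart, with Pearson's r over all probe sets at 0.969 to 0.978 within leukemia, 0.992 to 0.994 within wild-type and 0.902 to 0.925 between the groups. Leukemia replicate 1 stood apart, and limma's array weights put it at 0.192 where the remaining arrays had 0.865 to 2.49. No other leukemia array shared a hybridization entry in the array records with the wild-type arrays, and arrays with 1 such entry are called a run here. A comparison within that run sets leukemia replicate 1 alone against the 3 wild-type arrays. It holds no spread among leukemia samples, so only sizes of change are given for it. The 5' probe set of 18S ribosomal RNA was 3.13 log2 higher on the leukemia arrays, and the 3' minus 5' difference of Gapdh, a sign of RNA quality, was 0.23 higher (exact permutation p = 0.1 each, two-sided, and 3 against 3 arrays can reach no lower). For Actb the 3' minus 5' difference was only 0.03 higher (exact permutation p = 0.9). Each of these values was highest on leukemia replicate 1, and their part in the results was not tested. Kit was at 9.76, 9.80 and 9.34 log2 on the leukemia arrays and at 10.42, 10.42 and 10.35 on the wild-type arrays, a change of -0.76, while its other tested probe set had a change of 0.72. The lineage genes with a named probe set, Cd8a, Ms4a1 and Itgam, were dim, under the array's 40th percentile on all 6 arrays.

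Gata3 was raised in the leukemia cells, Tal1 was slightly raised, and both probe sets of Zfpm1 were lowered, while Gata1, Gata2, Nfe2, Gfi1b and Lmo2 did not pass the test. All 10 probe sets passed the filter on low values, which asked for a value at or above the array's 40th percentile (5.39 to 5.54 log2) on at least 3 arrays. Gata3 passed it through the 3 leukemia arrays alone, so that a tested Gata3 was bound to differ and its values are a description. Of the 10 probe sets 2 rose, Gata3 among them, and 2 fell (limma, adjusted p under 0.05 over all 16327 probe sets tested). That is a share of 40%, and 39.1% of all tested probe sets were called in either direction. Leukemia and wild-type values were fully apart for 6 of the 10, against 57.1% of all tested probe sets. The members were thus called about as often as probe sets in general. The median change of the 10 was -0.16 log2, against -0.03 over all tested probe sets.

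**Figure D1:**
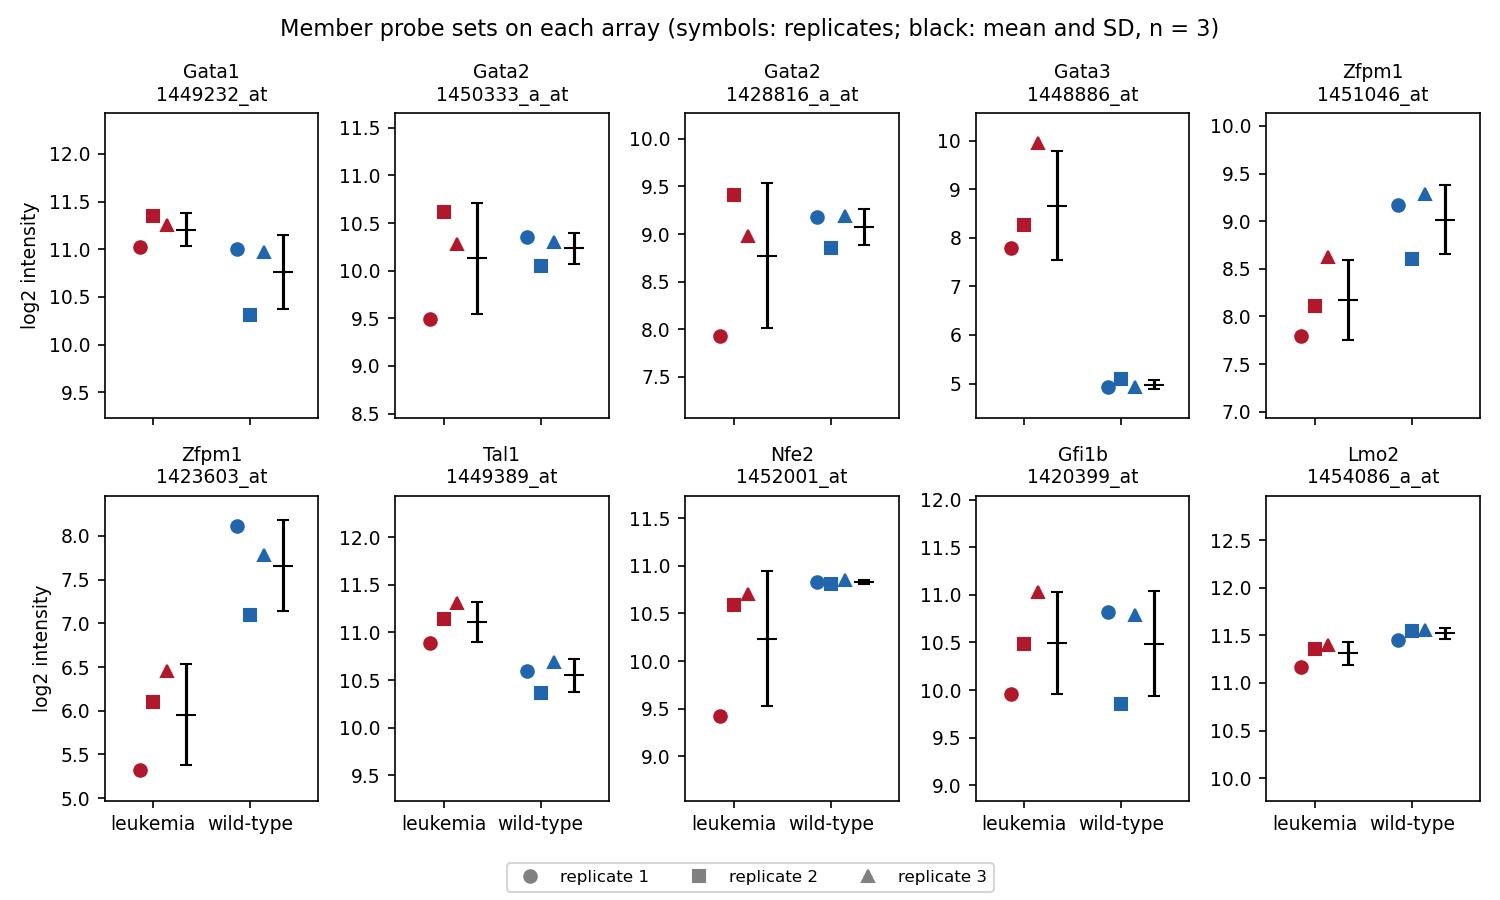
Log2 intensity (y axis, a scale of its own in each panel) of the 10 probe sets in leukemia (left, red) and wild-type (right, blue). Coloured symbols are the replicates, and black marks are the mean and SD (n = 3). Gata3 lies between 7.79 and 9.94 in leukemia and between 4.92 and 5.09 in wild-type, whereas Gfi1b averages 10.49 in both groups.

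Gata3 showed the largest change of the 10. Its probe set 1448886_at was at 7.79, 8.26 and 9.94 log2 on leukemia arrays 1, 2 and 3, and at 4.92, 5.09 and 4.92 on the wild-type arrays. All leukemia arrays were above all wild-type arrays, and leukemia replicate 3 was the highest. The mean was 8.66 ± 1.13 in leukemia and 4.98 ± 0.10 in wild-type (SD, n = 3 each). The measured change was 3.69 ± 0.51 (SE, 95% interval 2.48 to 4.89). The wild-type values lay below the 40th percentile of their arrays, so the size is uncertain, and it was 3.16 with 16 added before the log. It was 2.81 within the run, where leukemia replicate 1 is the only leukemia array, and 4.12 without that array. The adjusted p of Gata3 (limma, 0.00166) is no support, since the probe set was tested only because leukemia was high.

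The level of Gata3 was set beside the genes of T cells, in which Gata3 is best known. Of 21 listed T cell genes 11 had a named probe set, and 7 of these lay below the 40th percentile on every leukemia array, as did 7 on every wild-type array. Among them Cd2, Cd5 and Cd8a were below it on all 6 arrays. The summed intensity of the 11 genes was 814.9, 878 and 1122 on the leukemia arrays, against 638.8, 759.3 and 657.2 on the wild-type arrays. Of the 5 tested genes 2 rose and 1 fell, whereas over all 9715 genes tested with their brightest probe set 41.4% were called, 16.6% higher and 24.9% lower. Those that rose were the adaptor Lat (1.35) and the receptor chain Cd247 (1.36), and the interleukin receptor gene Il7r fell (-3.13). Cd247 was tested only through its leukemia arrays and Il7r only through its wild-type arrays, with the other group below the 40th percentile throughout, so both were bound to differ and their sizes are uncertain. Lat and Cd247 also act in signalling outside T cells. In bulk samples a larger share of cells that express a gene and more RNA of it per cell cannot be told apart.

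The start of the Gata3 gene is shown because this was the member with the largest change, together with those of Tal1 and Gfi1b, whose windows also held a GATA motif, and that of Zfpm1, the member that fell. The windows are RefSeq sequences of build GRCm38.p6 that run from 250 bases before to 50 bases after the transcription start, printed 5' to 3' along the gene. Of the 8 genes 6 had such a window and 8 windows were found in all, while Nfe2 and Lmo2 were not matched. Capitals mark each match to AGATAA or AGATAG or TGATAA or TGATAG on either strand. The Gata3 window is chr2:9878551-9878850 on the minus strand, the Tal1 window chr4:115056176-115056475 on the plus strand, the Gfi1b window chr2:28621933-28622232 on the minus strand and the Zfpm1 window chr8:122281891-122282190 on the plus strand.
Gata3: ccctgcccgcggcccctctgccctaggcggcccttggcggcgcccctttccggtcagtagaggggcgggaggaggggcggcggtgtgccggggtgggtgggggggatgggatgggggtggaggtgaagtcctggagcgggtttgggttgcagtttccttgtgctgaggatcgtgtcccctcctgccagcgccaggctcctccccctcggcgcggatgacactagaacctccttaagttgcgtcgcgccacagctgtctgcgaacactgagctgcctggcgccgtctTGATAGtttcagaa
Tal1: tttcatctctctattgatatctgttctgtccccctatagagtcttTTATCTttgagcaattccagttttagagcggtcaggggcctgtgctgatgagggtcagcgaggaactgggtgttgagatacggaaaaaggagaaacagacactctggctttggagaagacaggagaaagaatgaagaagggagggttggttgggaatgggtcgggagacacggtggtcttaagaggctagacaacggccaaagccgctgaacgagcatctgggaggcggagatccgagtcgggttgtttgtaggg
Gfi1b: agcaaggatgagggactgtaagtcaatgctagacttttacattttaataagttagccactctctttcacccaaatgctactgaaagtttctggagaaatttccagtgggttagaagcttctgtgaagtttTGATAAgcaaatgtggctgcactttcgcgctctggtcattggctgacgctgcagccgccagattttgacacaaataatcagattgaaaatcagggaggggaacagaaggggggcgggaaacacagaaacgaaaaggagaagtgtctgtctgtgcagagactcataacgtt
Zfpm1: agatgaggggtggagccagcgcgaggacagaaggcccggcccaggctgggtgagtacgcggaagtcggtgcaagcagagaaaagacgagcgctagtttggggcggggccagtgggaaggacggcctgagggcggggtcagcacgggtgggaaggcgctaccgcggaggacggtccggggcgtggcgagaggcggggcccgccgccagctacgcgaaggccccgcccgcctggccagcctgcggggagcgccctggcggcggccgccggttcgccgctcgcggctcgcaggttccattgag
Gata3 held 1 match, TGATAG, 37 bases after the start. Tal1 held 1 match in the upstream of its 2 windows, AGATAA on the opposite strand, 205 bases before the start. Gfi1b held TGATAA 120 bases before the start. The Zfpm1 window, at 73.7% G and C, held none of these motifs, nor did the windows of Gata1 and Gata2 or the downstream window of Tal1. Of all 32851 promoter windows of this length 29.8% held at least 1 match, beside 3 of these 8 windows (37.5%), and a match is a description and not a binding site.

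Gata1 was only slightly above the wild-type level. Its probe set 1449232_at was at 11.02, 11.35 and 11.25 log2 in leukemia, against 11.00, 10.31 and 10.97 in wild-type. The lowest leukemia array lay just above the highest wild-type array, and wild-type replicate 2 was clearly the lowest of the 6. The means were 11.20 ± 0.17 in leukemia and 10.76 ± 0.39 in wild-type, and the change of 0.45 ± 0.19 SE did not pass (95% interval -0.01 to 0.90, limma adjusted p = 0.11). Without wild-type replicate 2 the change was 0.22.

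Gata2 did not pass with either of its probe sets. The brighter, 1450333_a_at, was at 9.49, 10.62 and 10.28 log2 in leukemia and at 10.35, 10.05 and 10.30 in wild-type. The other, 1428816_a_at, was at 7.93, 9.41 and 8.98 in leukemia and at 9.18, 8.85 and 9.19 in wild-type. On both probe sets leukemia replicate 1 was the lowest of the 6 arrays and leukemia replicate 2 the highest, so the leukemia values enclosed the wild-type ones. The changes were -0.11 (95% interval -0.75 to 0.54, limma adjusted p = 0.78) and -0.30 (-1.14 to 0.54, adjusted p = 0.531). Leukemia replicate 1 decided the direction. Without it they were 0.22 and 0.13, and within its run they were -0.75 and -1.15, again on that array alone. The intervals leave room for a rise of about the size of the change seen in Gata1, and for a larger fall.

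The difference of Gata1 minus Gata2 on each array asks if these 2 factors changed unequally. Levels of different probe sets cannot be compared, and only the change of the difference between groups carries meaning. With the brighter Gata2 probe set it was 1.53, 0.73 and 0.97 log2 on the leukemia arrays, against 0.65, 0.26 and 0.67 on the wild-type arrays. Every leukemia array lay above every wild-type array, although the lowest exceeded the highest wild-type value by little. The difference was 0.55 higher in leukemia (exact permutation p = 0.1, two-sided, the smallest possible here). With the other Gata2 probe set it was 0.74 higher (exact permutation p = 0.1), with arrays at 3.09, 1.94 and 2.27 in leukemia and at 1.83, 1.46 and 1.77 in wild-type. Without leukemia replicate 1 the value was 0.32, and on that array alone against wild-type it was 1.00.

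Zfpm1, the cofactor of Gata1, was the member that fell. Its dimmer probe set 1423603_at was at 5.32, 6.10 and 6.45 log2 in leukemia, against 8.11, 7.09 and 7.78 in wild-type. The groups did not overlap, and wild-type replicate 2 and leukemia replicate 1 were the lowest of their groups. The means were 5.96 ± 0.57 in leukemia and 7.66 ± 0.52 in wild-type, with a change of -1.70 ± 0.36 SE (95% interval -2.56 to -0.85, limma adjusted p = 0.01). It was -1.47 with 16 added before the log. This call held in each alternative setting that gave a value for the probe set, the run of leukemia replicate 1 aside, with changes of -1.99 to -1.39. Within that run the change was -2.33. The brighter probe set 1451046_at was at 7.79, 8.11 and 8.62 in leukemia and at 9.17, 8.60 and 9.28 in wild-type, where the highest leukemia array and the lowest wild-type array nearly coincided. Its change was -0.84 ± 0.26 SE (95% interval -1.46 to -0.22, limma adjusted p = 0.0417). That call did not hold when leukemia replicate 1 or 2, or wild-type replicate 1 or 3, was left out (adjusted p = 0.0754, 0.0912, 0.126 and 0.143). The direction was the same for both probe sets under every setting run, so the fall of Zfpm1 rests on the dimmer one and its size is uncertain.

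Tal1 rose by a small amount. Its probe set 1449389_at was at 10.89, 11.14 and 11.31 log2 in leukemia, against 10.60, 10.36 and 10.69 in wild-type. The groups did not overlap and each had a narrow spread. The means were 11.11 ± 0.21 in leukemia and 10.55 ± 0.17 in wild-type, and the change was 0.56 ± 0.13 SE (95% interval 0.25 to 0.88, limma adjusted p = 0.0147), a 1.48-fold rise. Tal1 missed the threshold when wild-type replicate 2 was left out (0.47, limma adjusted p = 0.0547). Its change was 0.34 within the run of leukemia replicate 1. Lmo2 (1454086_a_at), which bridges Tal1 and the Gata factor, was at 11.17, 11.36 and 11.40 in leukemia and at 11.45, 11.55 and 11.56 in wild-type. All leukemia arrays were below all wild-type arrays, but the change of -0.21 ± 0.08 SE did not pass (95% interval -0.40 to -0.02, limma adjusted p = 0.0725). Within the run of leukemia replicate 1 it was -0.35.

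Nfe2 was lower on all leukemia arrays without passing the test. Its probe set 1452001_at was at 9.42, 10.59 and 10.70 log2 in leukemia and at 10.83, 10.81 and 10.85 in wild-type. Leukemia replicate 1 lay far below the others, and the remaining leukemia arrays were close to the wild-type level. The leukemia SD was 0.71 and the wild-type SD 0.02, and the change of -0.59 had an interval of -1.34 to 0.15 (limma adjusted p = 0.174). Without leukemia replicate 1 the change was -0.19 and passed by a narrow margin (limma adjusted p = 0.049). Within the run of that array it was -1.41. Gfi1b gave no difference in its mean. Its probe set 1420399_at was at 9.96, 10.48 and 11.03 in leukemia and at 10.82, 9.85 and 10.79 in wild-type, and the groups overlapped. The change was 0.00 with an interval of -0.81 to 0.81 (limma adjusted p = 0.995), and leaving out 1 array turned its sign (-0.27 without leukemia replicate 3 and -0.32 without wild-type replicate 2).

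**Figure D2:**
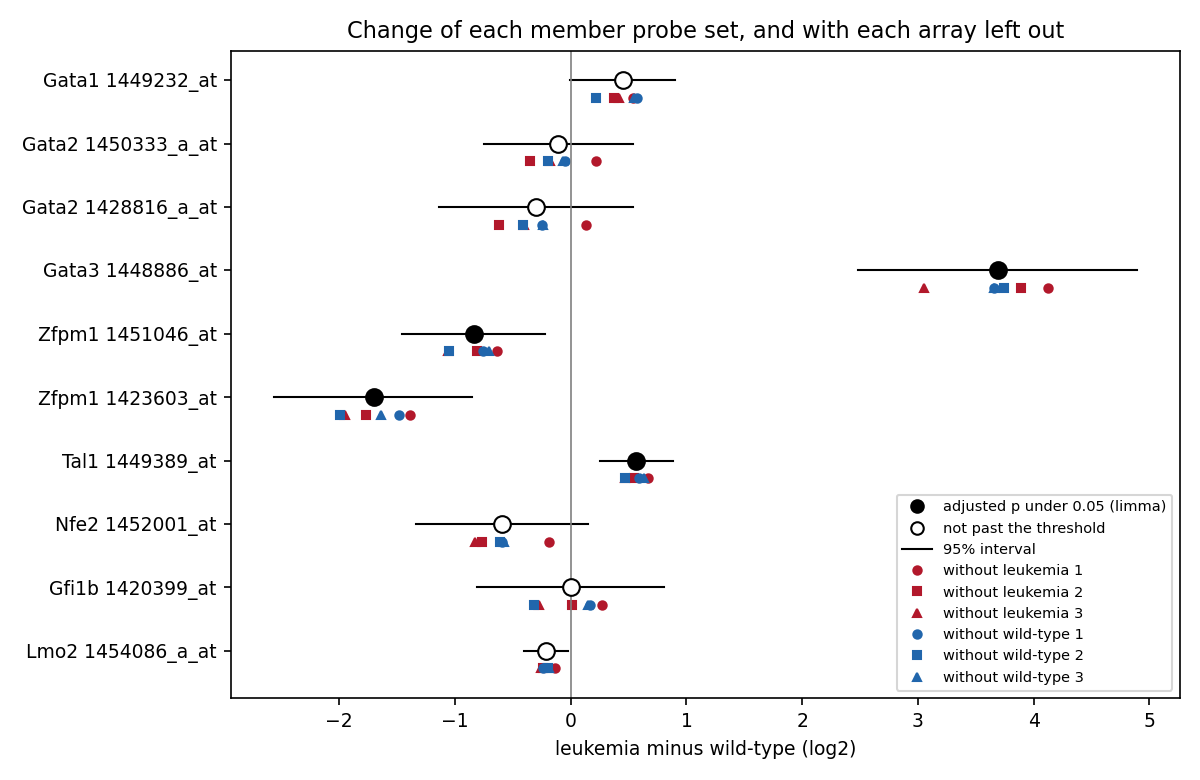
Log2 change of each probe set (x axis, leukemia minus wild-type), with its 95% interval. Filled circles passed the test (limma, adjusted p under 0.05), and the small symbols under each line show the change with 1 array left out. Gata3 stays between 3.05 and 4.12, while both Gata2 probe sets cross 0 when leukemia replicate 1 is left out.

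The members shared a pattern among arrays that the groups did not give. On leukemia replicate 1 all 10 probe sets lay below the mean of the other leukemia arrays, with a median deviation of -0.87 log2, whereas 53.1% of all tested probe sets did so, with a median deviation of -0.03. On leukemia replicate 3 none of the 10 lay below the mean of the other leukemia arrays, against 42.9% of all tested probe sets. That mean includes replicate 1, so this is not independent of the low values there. Gata1 and both Gata2 probe sets were highest on leukemia replicate 2, and the remaining members on replicate 3. On wild-type replicate 2, 8 of 10 lay below, with a median deviation of -0.31, against 58.6% of all tested probe sets. The exceptions there were Gata3 and Lmo2. The erythroid list described next ran the same way, at -0.13, 0.38 and 0.68 on leukemia arrays 1, 2 and 3 and at -0.15, -0.64 and -0.13 on the wild-type arrays (mean over its 29 genes of log2 values centred per gene). Its part in the members' values was not tested. The SD was larger in leukemia for 8 of the 10 probe sets, as for 74.5% of all tested probe sets.

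**Figure D3:**
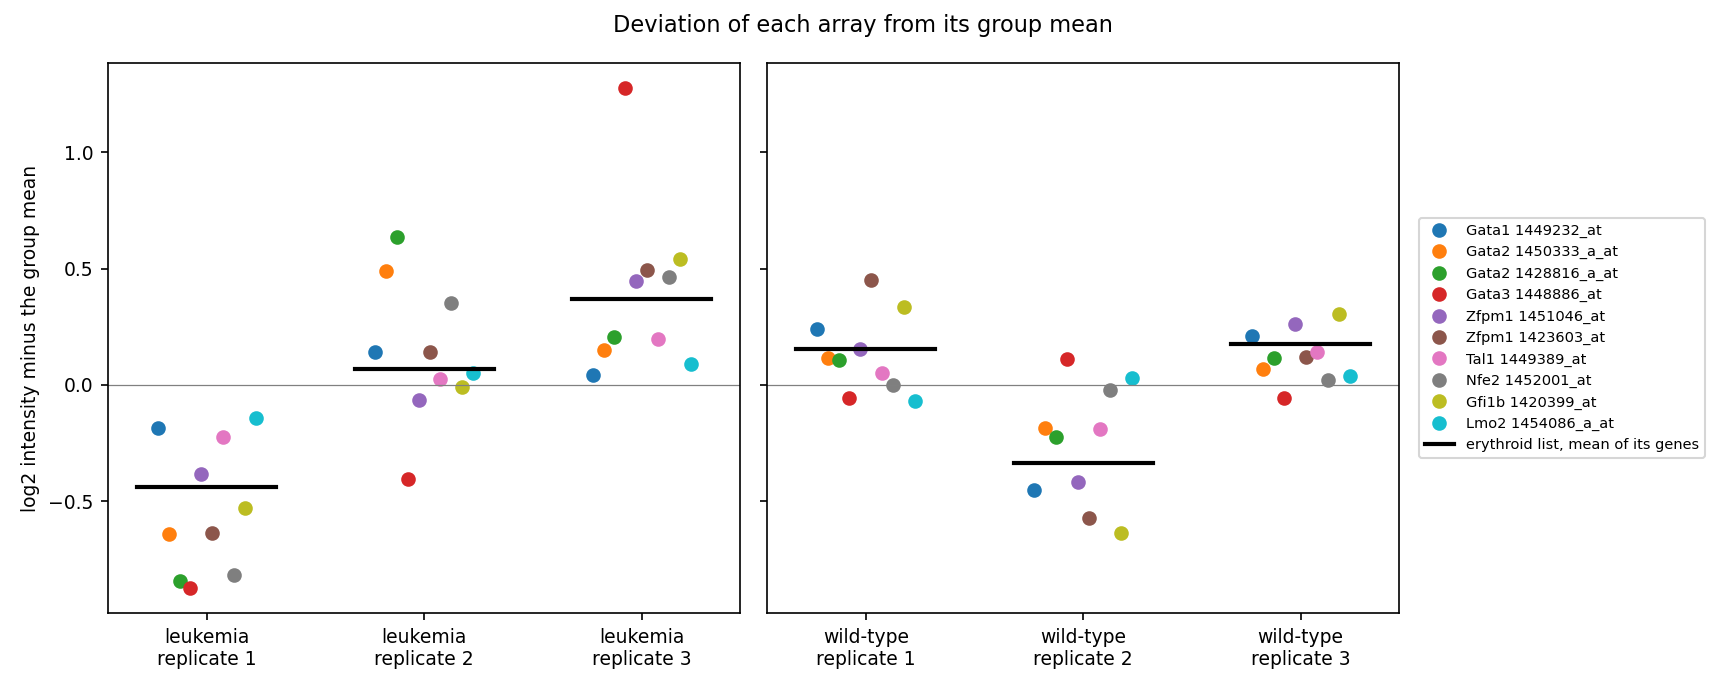
Log2 intensity minus the group mean (y axis) of each probe set on each leukemia array (left) and wild-type array (right), with the mean of the 29 erythroid genes as black lines. All 10 probe sets lie below 0 on leukemia replicate 1, and on wild-type replicate 2 only Gata3 and Lmo2 lie above 0.

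Genes of the red cell lineage that Gata1 is known to switch on mostly rose. Of 37 listed genes 29 had a named probe set and 27 were tested, of which 16 rose and 2 fell, with a median change of 0.86. These are 59.3% and 7.41% of the tested genes, against 16.6% and 24.9% of all 9715 genes, whose median was -0.09. Alas2, the enzyme that starts heme synthesis in red cells, averaged 8.78 ± 0.79 log2 in leukemia and 4.91 ± 0.10 in wild-type (SD, n = 3 each). Slc4a1, the anion exchanger of the red cell membrane, had a measured change of 3.16. Both were tested only through their leukemia arrays, as 3 of the 16 risen genes were, so they were bound to differ and are no support for the list. Aqp1, a water channel, fell by 6.89, and Add2, an adducin of the membrane skeleton, fell by 2.37 (a change of -1.27 over the mean of its probe sets). Within the run of leukemia replicate 1 the median change of the list was 0.65. Klf1, a red cell factor that Gata1 activates, was at 9.96, 11.41 and 11.68 in leukemia and at 11.82, 10.96 and 11.64 in wild-type. Like the members it was lowest among the leukemia arrays on replicate 1 and, as for most members, lowest among the wild-type arrays on replicate 2. Its change of -0.45 did not pass (limma adjusted p = 0.452), and was 0.07 without leukemia replicate 1 and -1.51 within its run.

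Of 26 listed megakaryocyte and platelet genes 22 had a named probe set and 14 were tested, of which 5 rose and 8 fell, with a median of -1.11. These are 35.7% and 57.1% of the tested genes, against 16.6% and 24.9% of all genes. Fewer rises passed with a wild-type array left out. There were 2 higher and 8 lower without replicate 1 or 3, and 3 higher and 8 lower without replicate 2. Calls over all probe sets also dropped, from 6382 to 4623, 4053 and 4022 without wild-type replicates 1, 2 and 3. The platelet glycoprotein gene Gp5 rose by 2.05 (1.07 within the run) and Rab27b, which acts in platelet granule release, rose by 1.73, whereas the tetraspanin Cd9 and platelet factor Pf4 fell by 4.90 and 3.85. Of the 8 that fell 4, Cd9 among them, lay below the 40th percentile on every leukemia array and were tested through wild-type alone. Of the 22 genes 10 lay below the 40th percentile on every leukemia array, against 5 on every wild-type array.

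Genes of mast cells and basophils, lineages in which Gata2 is active, included 14 tested of 18 listed. Of these 7 rose and 3 fell (50% and 21.4%, against 16.6% and 24.9% of all genes), with a median of 2.00. Without leukemia replicate 2, 7 rose and 5 fell with a median of 1.22, and within the run the median was 1.16. The activating receptor Cd200r3 had a change of 5.72 and the cytokine Il4 one of 4.48, while the proteases Ctsg and Mcpt8 fell by 7.81 and 5.67. Cd200r3 and Il4 were below the 40th percentile on every wild-type array and Mcpt8 on every leukemia array, so these 3 were bound to differ and their sizes are uncertain. Ctsg, at 4.23, 6.70 and 4.58 log2 in leukemia, is also counted in the granulocyte and monocyte list below. The summed intensity of the 16 genes with a named probe set was 14480, 29440 and 16990 on the leukemia arrays and 13080, 14000 and 13710 on the wild-type arrays. Leukemia replicate 2, the highest of the leukemia arrays for Gata2, was also the highest here, and the relation was not tested.

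The partners of the members in the Ldb1 complex, and those of Nfe2, were called about as often as genes in general. Of 25 listed genes 21 had a named probe set and 20 were tested, of which 4 rose and 6 fell (20% and 30%, against 16.6% and 24.9% of all genes), with a median of -0.56. Ldb1, which joins the complexes by pairing with itself, was at 8.86, 9.37 and 9.83 log2 in leukemia, against 10.42, 10.22 and 10.40 in wild-type. All leukemia arrays were below all wild-type arrays. The change was -0.99 (limma adjusted p = 0.0137), and it missed the threshold when wild-type replicate 1 or 3 was left out (adjusted p = 0.0506 and 0.0551). Tcf3, an E protein that pairs with Tal1 on DNA, was at 8.90, 8.84 and 9.03 in leukemia and at 10.38, 10.44 and 10.65 in wild-type. It fell by 1.56 (limma adjusted p = 7.88e-05), and its other tested probe sets had changes of -2.60 and -1.80. Tal1 and its partner Tcf3 thus changed in opposite directions. The E protein gene Tcf12 did not pass (0.04, limma adjusted p = 0.816), and its other tested probe sets had changes of 0.84 and 1.08. Another E protein gene, Tcf4, fell by 3.54, but missed the threshold when wild-type replicate 2 was left out (adjusted p = 0.0547). Leukemia replicate 1, at 7.36, lay far above the other leukemia arrays at 4.34 and 3.99, and the change was -1.41 within its run.

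Lyl1, the closest relative of Tal1, was at 8.03, 10.02 and 10.58 log2 in leukemia and at 10.48, 10.77 and 10.63 in wild-type, again with leukemia replicate 1 far below the others. Its change of -1.09 did not pass (limma adjusted p = 0.183), and was -2.60 within the run of that array. Lmo1, a relative of Lmo2, was at 4.70, 4.58 and 4.70 in leukemia and at 6.44, 7.25 and 7.14 in wild-type, a measured change of -2.28. It lay below the 40th percentile on every leukemia array, so it was tested through wild-type alone and was bound to differ. Ssbp3, which protects Ldb1 from degradation, rose by 1.00. Cbfa2t3 (ETO2), a corepressor of the complex related to the ETO part of the fusion, was at 8.19, 9.34 and 9.16 in leukemia and at 9.68, 9.61 and 9.72 in wild-type. Its change of -0.77 did not pass (limma adjusted p = 0.0681). It passed at -0.42 without leukemia replicate 1 (limma adjusted p = 0.0108), at -0.51 with array weights (0.0307) and at -0.99 without leukemia replicate 2 (0.0345). Within the run the change was -1.48. Without wild-type replicate 2, and likewise without replicate 3, 2 genes of the list rose and 5 fell. Within the run of leukemia replicate 1 the median change of the list was -0.93.

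Mafg, a small Maf partner of Nfe2, and Bach1, a competitor for it, changed in opposite directions. Mafg, with which Nfe2 binds DNA, was at 6.90, 7.51 and 7.42 log2 in leukemia and at 8.66, 8.60 and 8.44 in wild-type, and fell by 1.29 (limma adjusted p = 0.00204). Bach1, a repressor that binds DNA with the same small Mafs, was at 9.94, 10.28 and 9.85 in leukemia and at 8.98, 9.05 and 9.12 in wild-type, and rose by 0.97 (limma adjusted p = 0.00148). The groups overlapped for neither gene. Another small Maf gene, Mafk, had a change of 0.02 and did not pass (limma adjusted p = 0.92). Nfe2l1, a relative of Nfe2, fell by 1.11. Id1, which binds E proteins and keeps them off DNA, rose by 2.23, a call lost without leukemia replicate 2 or any of the wild-type arrays (adjusted p = 0.05 to 0.0596), and its change was 0.81 within the run.

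Gfi1, the relative of Gfi1b that acts in granulocytes and stem cells, was at 3.24, 3.72 and 3.45 log2 in leukemia, against 8.12, 9.04 and 8.38 in wild-type, a measured change of -5.04. Its leukemia values lay below the 40th percentile, so it was tested through wild-type alone, was bound to differ and its size is uncertain. Gfi1 was counted with the corepressors that serve Gfi1b, Zfpm1 or Tal1. Of 22 such genes 21 were tested, of which 2 rose and 9 fell (9.52% and 42.9%, against 16.6% and 24.9% of all genes), with a median of -0.15. With the mean of the probe sets of each gene 2 rose and 6 fell, with a median of -0.10. Ctbp2, a corepressor that binds Zfpm1, fell by 3.38, but the call was lost when any array but leukemia replicate 2 was left out (adjusted p = 0.0565 to 0.0852). Mbd2, a methyl-CpG binding subunit of the NuRD complex, rose by 0.75. Rcor1 (CoREST), which joins Gfi1b to the demethylase LSD1, had a change of 0.37 (limma adjusted p = 0.0187) that was lost under 6 of the alternatives. Without wild-type replicate 2, 1 gene of the list rose and 6 fell, and without replicate 3, 1 rose and 5 fell.

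Among other regulators of progenitor fate 3 rose and 7 fell of 16 tested (18.8% and 43.8%, against 16.6% and 24.9% of all genes), with a median of -0.43. Cebpa, the factor of granulocyte and monocyte progenitors, was at 4.34, 4.96 and 4.11 log2 in leukemia and at 9.60, 9.95 and 10.03 in wild-type, a measured change of -5.39. Meis1, a homeobox factor of stem cells and megakaryocytes, had one of -4.64, and of -2.99 over the mean of its probe sets. Both, among 3 of the 7 that fell, lay below the 40th percentile on every leukemia array, so they were bound to differ and their sizes are uncertain. Runx1, the gene of the AML1 part of the fusion, rose by 1.71 (limma adjusted p = 0.0275). This call was lost without leukemia replicate 3, wild-type replicate 2 or wild-type replicate 3 (adjusted p = 0.061 to 0.0985), and the change was 0.72 within the run. The 5 other tested probe sets of Runx1 had changes of 0.96 to 1.85. The mean of its probe sets changed by 1.55 (limma adjusted p = 0.00617). Hhex, a homeobox factor, rose by 0.79, a call lost without leukemia replicate 3, wild-type replicate 1 or wild-type replicate 2. Without wild-type replicate 2, and likewise without replicate 3, 1 gene of the list rose and 6 fell.

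**Figure D4:**
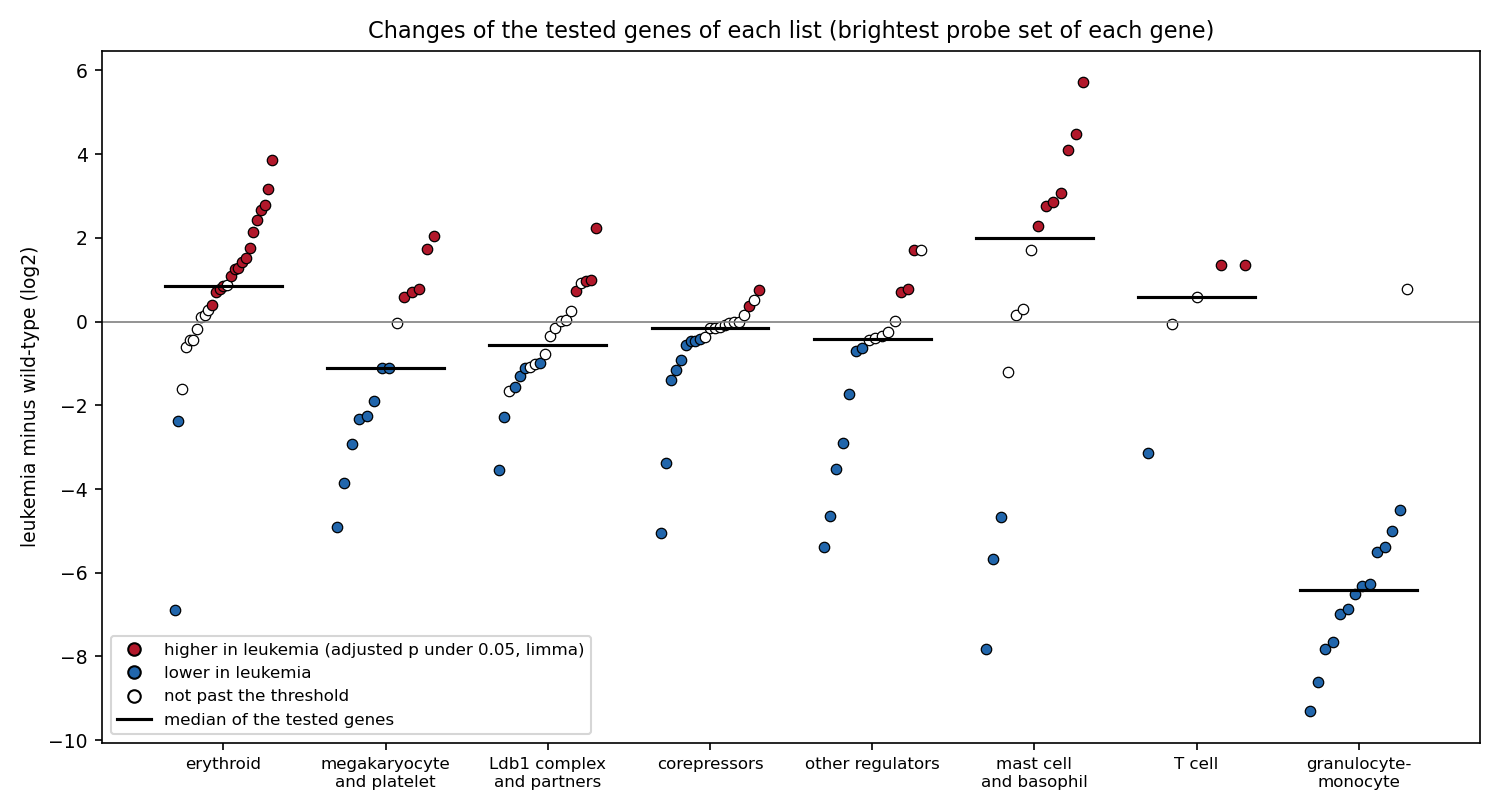
Change of each tested gene (y axis, log2, leukemia minus wild-type, brightest probe set) in 8 gene lists (x axis). Red points are higher and blue points lower in leukemia (limma, adjusted p under 0.05), open points did not pass, and black lines are medians. The erythroid median lies at 0.86 and the granulocyte and monocyte median at -6.41.

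Genes of other cell types moved beside the members. Of 14 tested granulocyte and monocyte progenitor genes 13 fell (92.9%, against 24.9% of all genes), with a median of -6.41. The peroxidase gene Mpo was at 4.21, 3.98 and 4.16 log2 in leukemia, against 13.34, 13.52 and 13.42 in wild-type. Plac8 had a change of -8.61. Of the 13 that fell 9, Mpo and Plac8 among them, lay below the 40th percentile on every leukemia array. They were tested through wild-type alone, so they were bound to differ, and their sizes are uncertain. These 9 are no support for the share of the list. The summed intensity of the 14 genes was 1614, 932.6 and 578.7 on the leukemia arrays and 42540, 56030 and 47820 on the wild-type arrays. The groups thus differed widely in the RNA of these genes, and the part of this in the members' changes was not tested. Of 2 tested B cell genes 1 fell (50%, against 24.9% of all genes). This was Vpreb1 (-1.51), a call lost without wild-type replicates 2 or 3. Of 4 tested genes of spleen stroma and endothelium 1 rose and 3 fell (25% and 75%, against 16.6% and 24.9% of all genes). The receptor Tek rose (2.51), and Pecam1 (-4.61) and Emcn (-2.62) were among those that fell. With 2 and 4 tested genes the shares of these lists say little. Vpreb1, Pecam1 and Emcn lay below the 40th percentile on every leukemia array and were bound to differ, and Tek changed by 1.41 within the run. Of the other Gata family genes, Gata6 and Trps1 had a named probe set and neither passed the filter on low values.

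The genes closest to the Gata factors in pattern were found by the root mean square difference of log2 values over the 6 arrays, each gene centred on its own mean, among 9715 genes. With 6 arrays such likeness is a description only. Closest to Gata1 were Slc25a32 (0.07), Bag2 (0.09) and Lrrc57 (0.09). Closest to Gata2 were Coq3 (0.05), Plekhj1 (0.07) and 1810055G02Rik (0.10). For Gata3 the nearest were Ddx43 (0.21), H3f3b (0.28) and Slc6a20a (0.38). The profiles were not scaled, so the difference depends on how widely a gene varies. The larger values of Gata3, which varied more, therefore do not show a less shared pattern.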

How the data were processed

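Expression was measured on 6 arrays, 3 leukemia and 3 wild-type, from 200 ng of total RNA each, per the labels. The authors deposited linear intensity values (3.31 to 18869). RMA is named in the submitters' processing notes, and its version, background correction and scaling are not given in the sources used here. The planned test expected log2 values, so the log2 of each intensity was used, without a pseudocount. The deposited array records, whose other text entries were not used, gave the chip lot (1) and the hybridization entry (2 runs). Of 28821 probe sets 23750 had 1 gene symbol in the platform annotation, 677 several, 4355 none and 39 were controls. Of those with 1 symbol 23674 matched RefSeq (GRCm38.p6), which changed 0 symbols.

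The groups were compared by limma 3.58.1 (R 4.3.3), with variances moderated along an intensity trend, two-sided tests and 4 residual degrees of freedom. The fit covered the 16327 named probe sets that reached the 40th percentile of an array on at least 3 arrays, with Benjamini-Hochberg adjustment over all of them and a threshold of 0.05. Lists used the brightest named probe set of each gene, and were described by counts and medians from this fit. A gene whose brightest probe set failed the filter was counted as not tested. Some genes were counted in several lists. The genes named from each list were up to 2 per direction with the largest changes among called genes whose groups did not overlap, while any gene of the Ldb1 complex and regulator lists could be named. The 8 members and all lists were chosen with earlier results of these data known. The fit was tested on simulated data with known changes, where 5.97%, 44.8% and 83.3% of changes of 0.5, 1 and 2 log2 were recovered. Changes of 0.5 log2 were thus mostly missed there. Only 67, 67 and 66 of 16327 probe sets were changed, far fewer than the calls in the data, so the shares do not carry over directly. The number of arrays limits the precision, and no detection calls were used. Replicate numbers did not pair the samples.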

Additional observations from a re-analysis of the deposited data

How the results depend on the processing

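The number of arrays and the brightness of a probe set set the limits. Gata3, Alas2, Slc4a1, Cd200r3, Il4 and Cd247 lay below the 40th percentile on every wild-type array, and Gfi1, Cebpa, Meis1, Lmo1, Mpo, Plac8, Cd9, Il7r, Mcpt8, Vpreb1, Pecam1 and Emcn on every leukemia array, so they were bound to differ and their sizes are uncertain. The dimmer Zfpm1 probe set kept its direction in every alternative that gave it a value. It kept its call in each, the run of leukemia replicate 1 aside, and no cause was tested for any result that moved. The sign turned for both Gata2 probe sets with array weights (0.14 and 0.02) and without leukemia replicate 1 (0.22 and 0.13), for Klf1 without leukemia replicate 1 (0.07), and for Gfi1b within runs (-0.53), without leukemia replicate 3 (-0.27) and without wild-type replicate 2 (-0.32). With 1 array left out the ranges were -0.35 to 0.22 and -0.62 to 0.13 for Gata2, -0.32 to 0.27 for Gfi1b and -0.79 to 0.07 for Klf1. Within runs 7 member probe sets passed, 1 higher and 6 lower, in place of 4. The brighter Zfpm1 probe set also missed the threshold without an intensity trend (adjusted p = 0.0513). Over all probe sets 6382 passed, 2893 higher and 3489 lower. With 1 probe set per gene fewer were tested, and 4089 (brightest) or 3790 (mean) passed. Leaving out 1 array gave 4022 to 7423, and 4022 and 4053 without wild-type replicates 3 and 2. Of the lists, T cell genes had 1 call with means per gene, 5 with no filter and 1 with a stricter filter (the 60th percentile), and B cell genes had 3 with no filter, 0 with the stricter one and 0 to 2 with 1 array left out. Stroma genes had 2 without probe sets of shared endings and 1 with the stricter filter, which left 8 calls for megakaryocyte genes. Trps1 made 1 call among other Gata genes with no filter. Corepressors had 6 to 12 with 1 array left out. Probe sets with shared endings include both of Gata2 and that of Lmo2, which have no value in that setting. The difference of Gata1 minus Gata2 was 0.32 to 0.72 with 1 array left out, and its value with the other Gata2 probe set was chosen after seeing the data. The deviations of same-numbered samples from their group means correlated at -0.104, 0.043 and 0.00952, so the numbers gave no sign of pairing. The replicate block gave 5380 probe sets and 4 members.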
